A study of Mus musculus with 6 samples.

Results

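The 10 genes described here encode serotonin receptors: Htr1a, Htr1b, Htr1d, Htr1f, Htr2a, Htr3a, Htr3b, Htr4, Htr5a and Htr7. They were chosen by name, as the rows of the count tables that carry the NCBI mouse gene identifiers of these receptors, out of 36528 listed genes. All 10 were found, and all 10 passed the filter on low counts that left 22043 genes for testing. RNA came from lumbar dorsal root ganglia of female mice aged 12 to 18 weeks, with the 6 ganglia L4, L5 and L6 of 1 mouse in each library. The CreER-positive mice (n = 3) were pCAAG.Cre.ER Pos on a Scn9a loxP/loxP background, and their CreER-negative littermates (control, n = 3) were pCAAG.Cre.ER Neg on the same background. Both groups are thus homozygous for the floxed allele of Scn9a, the gene of the sodium channel Nav1.7. The series title calls the knockout global, and CreER is a Cre recombinase fused to an oestrogen receptor domain that tamoxifen activates. The sources used here do not state tamoxifen dosing or the time from dosing to sampling. The comparison asks whether receptor transcripts differ between these genotypes.

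Serotonin released in peripheral tissue, by platelets and in rodents also by mast cells, excites and sensitises the endings of sensory neurons, and serotonin from the brainstem acts on their central terminals in the spinal cord. The receptors fall into families by their coupling. The products of Htr1a, Htr1b, Htr1d, Htr1f and Htr5a couple to inhibitory Gi/o proteins, that of Htr2a to Gq and phospholipase C, and those of Htr4 and Htr7 to Gs and adenylyl cyclase, whereas Htr3a and Htr3b encode subunits of a serotonin-gated cation channel.

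Total counts per library ran from 40237131 to 63332040, and the lowest count of any receptor gene in any library was 210. The targeted gene Scn9a had 620, 565 and 574 CPM (read counts scaled to the library total, with TMM factors) in CreER-positive libraries, against 635, 611 and 557 CPM in controls. Its log2 fold change was -0.04 and its edgeR adjusted p 0.918. Reads outside the floxed exons, whose position the labels do not state, count towards this value, so it is no check on the genotypes. Pan-neuronal markers summed to 8194 to 9762 CPM in CreER-positive libraries and to 8287 to 9092 CPM in controls. CreER-positive replicate 3 stood apart from the others in markers of non-neuronal cells. Relative to the control mean (mean log2 difference over each list) it had 0.90 in red cell and platelet markers, 0.77 in macrophage, 0.64 in fibroblast, 0.43 in endothelial and mural and 0.31 in satellite glia markers, and -0.15 in pan-neuronal markers. Control replicate 2 stood apart in skeletal muscle markers, at 2.05.

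For 8 of the 10 receptor genes, RefSeq's promoter table (GRCm38.p6) held a promoter, given as 250 bases before to 50 bases after the transcription start. The sequences of 2 are shown, Htr2a as a receptor gene that fell and Htr1f as the one whose estimate lay nearest to 0. Capitals mark GGAAA, the core that NFAT factors bind, on either strand.
Htr2a: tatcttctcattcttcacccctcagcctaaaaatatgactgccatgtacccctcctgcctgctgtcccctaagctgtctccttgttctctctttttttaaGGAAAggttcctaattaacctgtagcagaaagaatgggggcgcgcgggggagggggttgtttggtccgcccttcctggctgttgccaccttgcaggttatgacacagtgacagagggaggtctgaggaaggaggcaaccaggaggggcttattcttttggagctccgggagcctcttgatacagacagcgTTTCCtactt
Htr1f: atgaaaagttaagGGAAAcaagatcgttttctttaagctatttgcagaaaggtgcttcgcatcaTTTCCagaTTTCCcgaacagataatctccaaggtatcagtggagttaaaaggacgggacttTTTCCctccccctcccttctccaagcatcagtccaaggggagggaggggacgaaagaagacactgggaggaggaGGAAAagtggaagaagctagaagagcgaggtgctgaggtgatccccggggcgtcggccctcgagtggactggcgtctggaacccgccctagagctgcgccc
The Htr2a promoter lies at chr14:74640624-74640923 on the plus strand and the Htr1f promoter at chr16:65105735-65106034 on the minus strand. The NFAT core occurred 2 times in the Htr2a window and 5 times in the Htr1f window, and 61.3% of all 32851 promoters of this length hold it. A TATA box (TATAAA), the RUNX core (TGTGGT) and a half-site of the cAMP response element (TGACG), each searched on both strands, had 0 matches in both windows, and 13.6%, 16.8% and 20.8% of all promoters hold them. The Htr2a window had a GC content of 52% and 6 CpG, the Htr1f window 53% and 13 CpG, beside medians of 52.7% and 7 over all promoters. These matches describe letters in the windows and were not tested for a part in expression.

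Htr4 and Htr2a were lower in CreER-positive ganglia, Htr4 to 0.573 and Htr2a to 0.703 times the control level, and no receptor gene was called higher. In the quasi-likelihood fit of edgeR, with p values adjusted over all 22043 genes by Benjamini and Hochberg's method, 2 of the 10 receptor genes were called, 0 higher and 2 lower. Over all tested genes 0.726% were called, 0.163% higher and 0.563% lower. DESeq2 and limma-voom also called 2 each. Over all genes DESeq2 called 2.18% of the 19471 to which it gave an adjusted p, and limma-voom called 0.721%. Of the 10 estimates 7 were negative and 3 positive, with a median log2 fold change of -0.10, beside a median of 0.00 over all tested genes. At an unadjusted edgeR p under 0.05 there were 3 receptor genes, beside 10.6% of all genes.

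**Figure D1:**
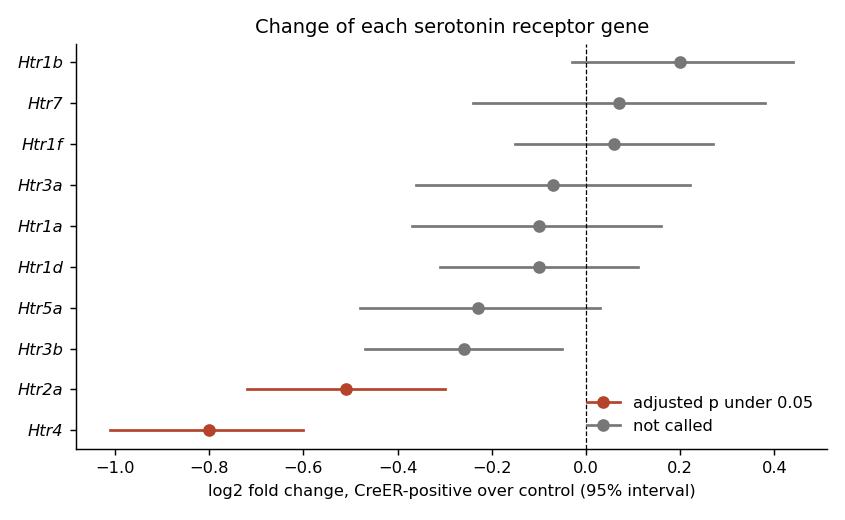
Log2 fold change of each receptor gene, CreER-positive over control, with its 95% interval from the edgeR fit (n = 3 libraries a group). Htr4 at -0.80 and Htr2a at -0.51 are the called genes, and the interval of Htr3b, from -0.47 to -0.05, also lies below 0 although its adjusted p was 0.363.

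Htr4, the Gs-coupled receptor gene, had the largest difference of the 10. On chromosome 18 its annotated span is 179482 bases. It had 18.1, 14.9 and 17.5 CPM in CreER-positive replicates 1 to 3, against 32.0, 29.0 and 27.1 CPM in controls 1 to 3. The highest CreER-positive library lay well below the lowest control. The means were 16.8 ± 1.70 and 29.4 ± 2.45 CPM (SD, n = 3 each), from counts of 915 to 1083 and 1301 to 1716. The log2 fold change of -0.80 ± 0.09 (SE) had a 95% interval of -1.01 to -0.60, a level 0.573 times that of controls, and the edgeR adjusted p was 0.00404. The call held in all 15 alternative fits, leaving out each library among them, with log2 fold changes from -0.86 to -0.72 and adjusted p values from 1.06e-12 (DESeq2) to 0.029. The predicted gene Gm36316, which overlaps Htr4, had 13 to 31 counts in CreER-positive libraries and 7 to 11 in controls, far fewer than Htr4, and its adjusted p was 0.384. Gm18653 also overlaps Htr4 but has no counts of its own in these data, so its share of the reads could not be checked.

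Htr7, the other Gs-coupled receptor gene, has been linked to itch in mice. Located on chromosome 19 (35958415 to 36058133), it had 12.8, 14.7 and 10.5 CPM in CreER-positive libraries, against 10.8, 11.3 and 14.1 CPM in controls. The groups overlapped across their whole ranges. Its log2 fold change was 0.07 ± 0.14 (95% interval -0.24 to 0.38), with an edgeR adjusted p of 0.909.

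Htr2a (chromosome 14, 74640874 to 74706859), whose product activates Gq and phospholipase C and sensitises nociceptors, was lower in every CreER-positive library. It had 9.39, 8.97 and 7.91 CPM in CreER-positive mice, against 11.3, 13.3 and 12.7 CPM in controls. The groups did not overlap. The means were 8.76 ± 0.76 and 12.4 ± 1.0 CPM (SD, n = 3 each), giving a log2 fold change of -0.51 ± 0.09 (95% interval -0.72 to -0.30). The edgeR adjusted p of 0.0493 lay at the threshold of 0.05. The call ended when any single control was left out (0.0808, 0.254 and 0.199 for replicates 1 to 3) and when CreER-positive replicate 1 (0.0708) or replicate 2 (0.1) was. It also ended with all 6 libraries under DESeq2 size factors (0.0538), without the count filter (0.0537) and under the legacy quasi-likelihood method (0.0506). It held without CreER-positive replicate 3 (0.0353), by DESeq2 (8.84e-04) and by limma-voom (0.0486), and the estimate was negative throughout, from -0.57 to -0.39.

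**Figure D2:**
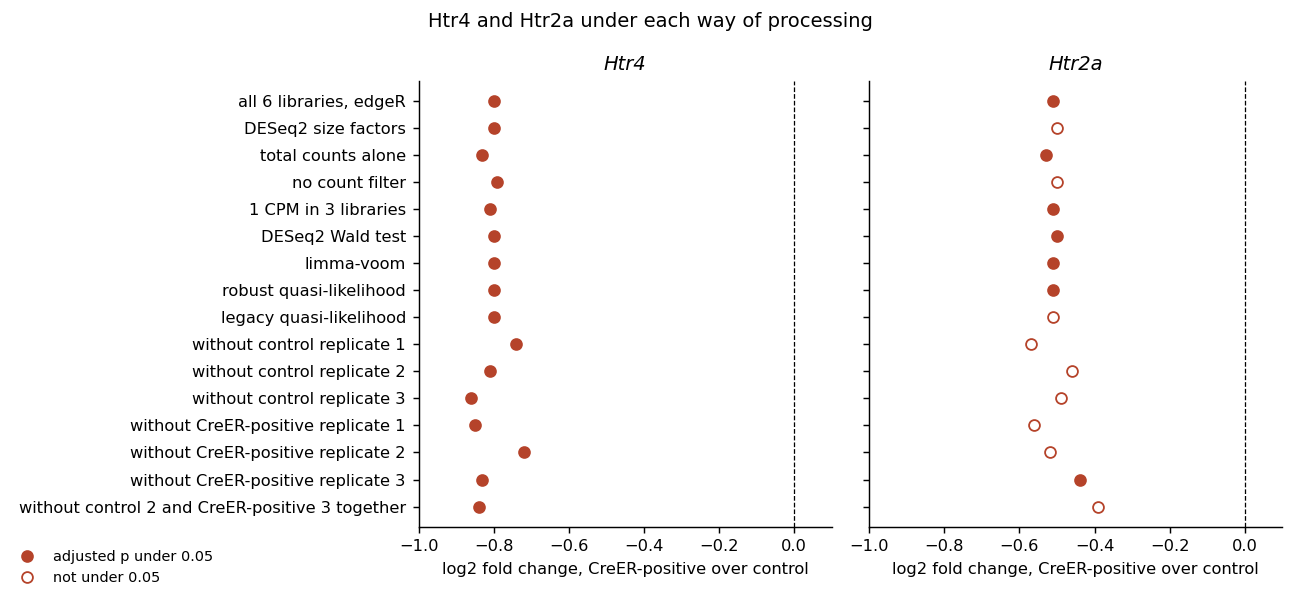
Log2 fold changes of Htr4 and Htr2a, CreER-positive over control, in the fit of all 6 libraries and under 15 alternatives; filled points have an adjusted p under 0.05. Htr4 stays between -0.86 and -0.72 with every point filled, and Htr2a stays between -0.57 and -0.39 with 9 of its 15 alternatives open.

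The channel subunit genes Htr3a and Htr3b lie next to each other on chromosome 9, 23855 bases apart. Htr3a (48899213 to 48911152) encodes the subunit that can form a working channel alone. It had 111, 105 and 83.9 CPM in CreER-positive libraries, against 88.3, 104 and 123 CPM in controls. CreER-positive replicate 3 and control replicate 1 were the low libraries, and the groups overlapped. The log2 fold change was -0.07 ± 0.13 (95% interval -0.36 to 0.22, edgeR adjusted p 0.897), and its sign turned to 0.06 without control replicate 3 and to 0.04 without CreER-positive replicate 3. The predicted gene Gm32335 overlaps Htr3a and had 3610 to 5379 counts in CreER-positive libraries and 2891 to 6203 in controls, so reads of these genes cannot be assigned to 1 of them.

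Htr3b (48935008 to 48964990), whose subunit needs Htr3a to form a channel, had 16.8, 17.0 and 14.0 CPM in CreER-positive libraries, against 17.4, 19.0 and 20.9 CPM in controls. The CreER-positive values all lay below the lowest control, by a small margin for replicates 1 and 2. The log2 fold change of -0.26 ± 0.10 had an unadjusted p of 0.0222 and an edgeR adjusted p of 0.363, so the difference did not pass over all genes. For each 100 reads of Htr3a there were 15.1, 16.2 and 16.7 reads of Htr3b in CreER-positive libraries, against 19.7, 18.2 and 16.9 in controls. The means were 16.0 ± 0.823 and 18.3 ± 1.39 (SD, n = 3 each), and the log2 difference was -0.19. The exact two-sided permutation p was 0.1, the smallest that 3 libraries against 3 can give.

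None of the Gi/o-coupled receptor genes passed. Htr1d (chromosome 4, 136423522 to 136444405), a target of the triptan migraine drugs that is found in peptidergic sensory fibres, had 27.4, 30.0 and 23.8 CPM in CreER-positive libraries, against 26.4, 29.5 and 31.3 CPM in controls. Its log2 fold change was -0.10 ± 0.09 (95% interval -0.31 to 0.11). Htr1b (chromosome 9, 81628291 to 81633832), also a triptan target, had 7.97, 8.72 and 7.31 CPM in CreER-positive libraries, against 6.10, 7.35 and 7.32 CPM in controls. Replicate 3 of the CreER-positive mice fell among the controls, and the log2 fold change was 0.20 ± 0.11 (95% interval -0.03 to 0.44, edgeR adjusted p 0.556). Htr1b overlaps D430036J16Rik, which had 540 to 611 counts in CreER-positive libraries and 339 to 566 in controls beside 389 to 536 and 248 to 463 for Htr1b.

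Htr1f (chromosome 16, 64924729 to 65105784), the target of the migraine drug lasmiditan and a gene of Nppb- and Sst-expressing itch neurons, had 17.1, 15.6 and 15.7 CPM in CreER-positive libraries, against 17.8, 14.4 and 14.3 CPM in controls. The groups overlapped, with a log2 fold change of 0.06 ± 0.09 (95% interval -0.15 to 0.27). Htr1a (chromosome 13, 105443693 to 105448133), the gene of a receptor that also acts as the autoreceptor of brainstem serotonin neurons, had 10.3, 11.6 and 8.80 CPM in CreER-positive libraries, against 9.57, 11.9 and 11.5 CPM in controls (log2 fold change -0.10 ± 0.12, 95% interval -0.37 to 0.16). Htr5a (chromosome 5, 27841716 to 27855086) had 5.07, 5.26 and 4.68 CPM in CreER-positive libraries, against 5.17, 6.59 and 5.76 CPM in controls. CreER-positive replicate 2 lay above control replicate 1, and the log2 fold change was -0.23 ± 0.11 (95% interval -0.48 to 0.03, edgeR adjusted p 0.538).

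**Figure D3:**
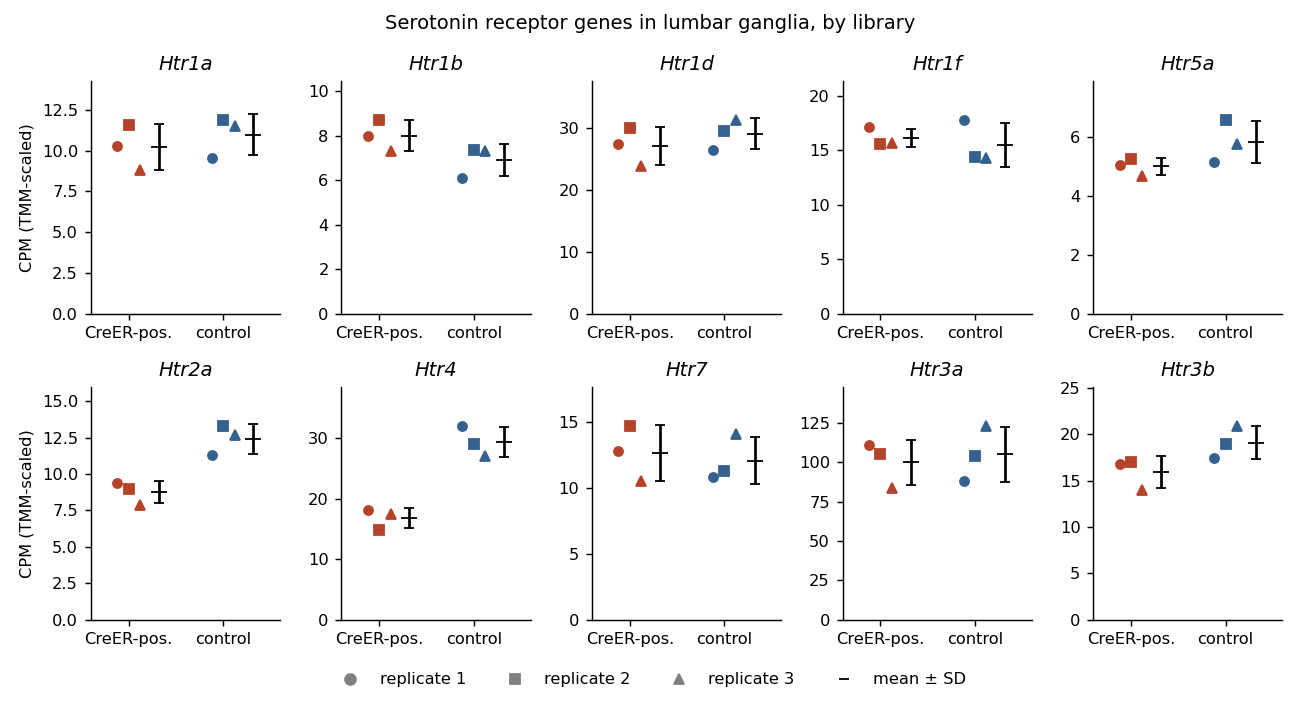
CPM of the 10 receptor genes in each library (points; marker shape gives the replicate) with the group mean ± SD (n = 3). The CreER-positive and control points are apart for Htr4 (14.9 to 18.1 against 27.1 to 32.0 CPM), for Htr2a (7.91 to 9.39 against 11.3 to 13.3 CPM) and narrowly for Htr3b, and overlap for the other 7 genes.

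In all, 3 of the 10 receptor genes, Htr4, Htr2a and Htr3b, had CPM ranges that were apart between the groups, each of them lower in CreER-positive libraries, beside 15.9% of all tested genes in either direction and 9.31% lower. CreER-positive replicate 3 had the lowest CPM of its group for 8 of the 10 genes and the lowest of all 6 libraries for 7. Control replicate 1, the library with the smallest total count, had the lowest CPM of the controls for 8. The exceptions in CreER-positive replicate 3 were Htr4 and Htr1f.

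Levels of different genes were compared per length, as RPKM (the counts scaled by library total and by kilobases of the authors' gene width). Htr3a stood first, with 8.45 ± 1.05 RPKM in CreER-positive libraries and 9.03 ± 1.46 RPKM in controls (SD, n = 3 each). Htr1b followed with 6.95 ± 0.522 and 6.11 ± 0.622 RPKM, and its range over the 6 libraries overlapped that of Htr3a. Htr1a had 2.33 ± 0.287 and 2.53 ± 0.285 RPKM and Htr1d 1.31 ± 0.132 and 1.43 ± 0.116 RPKM, each apart from its neighbours in the order. Htr3b, with a mean of 0.594 RPKM over all libraries, and Htr5a, with 0.412, overlapped each other. On the RPKM scale Htr5a had 0.362 to 0.394 in CreER-positive libraries and 0.396 to 0.507 in controls, so its groups were narrowly apart there, whereas they overlapped in CPM. Htr2a (0.163), Htr4 (0.135), Htr7 (0.126) and Htr1f (0.0888) came last. Htr2a overlapped Htr4 and Htr4 overlapped Htr7, while the range of Htr1f lay below that of Htr7. In controls Htr4 (0.172 RPKM) lay above Htr7 (0.123 RPKM), and in CreER-positive libraries it lay below, at 0.0974 beside 0.128 RPKM.

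This order depends on the length used. The authors' width is within 5% of the whole gene span for all but Htr1b, from 4441 bases for Htr1a to 181056 for Htr1f. For Htr1b it is 1161 bases beside a span of 5542. Divided instead by the exon length in GENCODE M21, a length chosen after seeing the data, Htr3a again came first, at a mean of 49.3 CPM per kilobase over the 6 libraries. Htr1d was next (8.76), then Htr3b (7.26), Htr1f (6.13), Htr4 (4.72), Htr7 (3.63), Htr1a (2.36), Htr2a (1.89), Htr1b (1.58) and Htr5a (1.01). Htr1f, the last by RPKM, stood in the fourth place, and Htr1b, the second by RPKM, in the ninth. The region in which reads were counted is not given, so the counts and the exon length may cover different bases. The authors' width is 1161 bases beside 4724 exon bases for Htr1b, and 181056 beside 2579 for Htr1f. The exon order is therefore uncertain, most of all for these genes. The range of Htr3a was apart from that of Htr1d, while from Htr1d to Htr7 each gene's range overlapped that of the next.

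**Figure D4:**
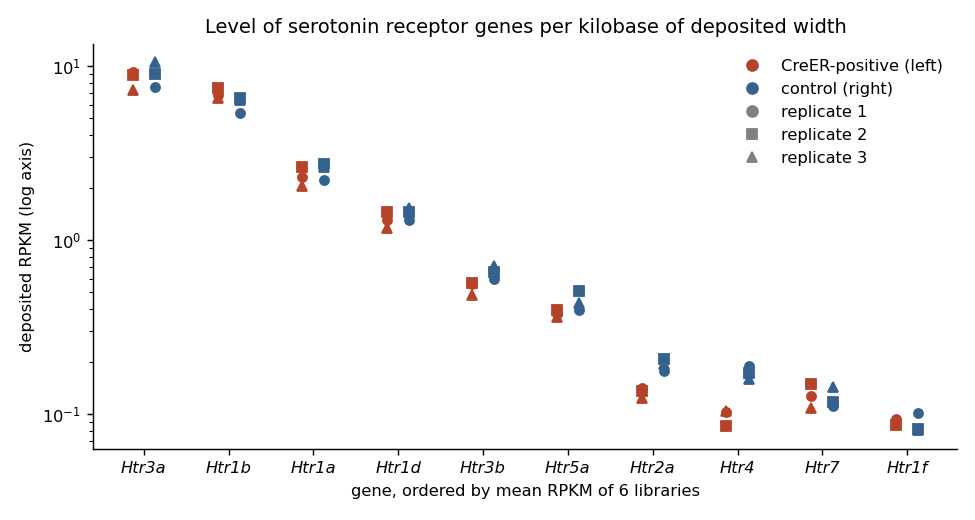
Deposited RPKM (log axis) of each receptor gene in CreER-positive (left points) and control libraries (right points), ordered by the mean over 6 libraries. Htr3a is highest at 7.27 to 10.5 RPKM and Htr1f lowest at 0.0805 to 0.101 RPKM; the groups are apart for Htr2a, Htr4 and Htr3b and by a narrow margin for Htr5a.

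Of the serotonin receptor genes outside these 10, Htr2b, Htr2c, Htr5b and Htr6 were tested. EdgeR called 0 of these 4, and 0 had an unadjusted edgeR p under 0.05. DESeq2 also called 0, but it gave Htr2c no adjusted p and so could not call it. Htr2b had a log2 fold change of 0.32 ± 0.17 and Htr5b of -0.22 ± 0.13. Htr2c was close to absent, at 0.2, 0.521 and 0.207 CPM in CreER-positive libraries and 0.271, 0.108 and 0.285 CPM in controls.

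Genes that make, carry and break down serotonin showed 0 calls among 10 tested by edgeR. At an unadjusted edgeR p under 0.05 there were 4, beside 10.6% of all tested genes. Of these, Maoa and Tph2 were lower, and Slc29a4 (0.25 ± 0.09) and Tph1 (0.67 ± 0.27) were higher in CreER-positive libraries. Tph1 was low throughout, at 0.282 to 0.4 CPM in CreER-positive libraries and 0.197 to 0.237 CPM in controls. Maoa, monoamine oxidase A, which degrades serotonin, had 101, 95.1 and 106 CPM in CreER-positive libraries, against 129, 121 and 126 CPM in controls. The groups did not overlap, and the log2 fold change of -0.31 ± 0.06 had an edgeR adjusted p of 0.0507, just above the threshold. DESeq2 called it (4.83e-04), as its single call in this list. For Tph1 and Slc6a4 DESeq2 gave no adjusted p. Tph2, tryptophan hydroxylase of neurons, had 1.28, 1.11 and 1.07 CPM in CreER-positive libraries and 1.62, 1.59 and 1.49 CPM in controls, with an edgeR adjusted p of 0.336. The serotonin transporter gene Slc6a4 stayed under 0.5 CPM in every library. Its groups did not overlap, with a log2 fold change of 0.61 ± 0.28 and an edgeR adjusted p of 0.49. Slc18a2, a vesicular monoamine transporter gene, had 15.2 to 15.5 CPM in CreER-positive libraries and 14.6 to 15.3 CPM in controls.

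Among receptor partners and effectors, single genes moved. Of 15 tested genes of Gs signalling, Adcy8, a calcium-stimulated adenylyl cyclase, rose, with 16.2, 18.0 and 16.3 CPM in CreER-positive libraries, against 9.35, 11.5 and 11.8 CPM in controls (log2 fold change 0.63 ± 0.10, edgeR adjusted p 0.0201). Adcy6, another adenylyl cyclase gene, had -0.18 ± 0.06 and 0.297, and the other 14 genes of the list were not called. Of 8 tested genes of Gi/o proteins and GIRK channels, Kcnj6, the GIRK2 potassium channel subunit, fell, with 3.02, 2.34 and 1.75 CPM in CreER-positive libraries, against 6.47, 5.31 and 4.4 CPM in controls (-1.17 ± 0.20, 0.0392). Gnai2 of the same list had 0.14 ± 0.06 and 0.444. Both calls ended when any single control was left out, with edgeR adjusted p values of 0.0547, 0.0842 and 0.0559 for Adcy8 and 0.166, 0.174 and 0.0671 for Kcnj6 in the order of the controls. They also ended when CreER-positive replicate 2 was (0.0564 for Adcy8, 0.102 for Kcnj6). Over all 15 alternatives the log2 fold change stayed between 0.53 and 0.69 for Adcy8 and between -1.37 and -1.0 for Kcnj6. Adcy8 overlaps the predicted gene Gm30752, so its reads cannot be assigned with certainty. At an unadjusted edgeR p under 0.05 there were 3 of the 15 Gs genes, Adcy8, Adcy6 and Gnas (0.24 ± 0.10). In the Gi/o list there were 2 of 8, Kcnj6 and Gnai2, beside 10.6% of all tested genes. Of 10 genes of Gq signalling 0 were called by edgeR or DESeq2, and 0 had an unadjusted p under 0.05. Plcb4, a phospholipase C beta gene, had -0.13 ± 0.06 and Plcb1 0.10 ± 0.06. Of 7 genes whose proteins bind or assemble these receptors 0 were called by edgeR or DESeq2 and 0 had an unadjusted p under 0.05, with -0.15 ± 0.08 for Tmem35a and 0.10 ± 0.06 for the arrestin gene Arrb2. The median log2 fold changes of the lists, Gs (-0.01), Gi/o (0.02), Gq (0.00), partners (-0.01) and serotonin handling (0.04), lay close to the 0.00 of all tested genes.

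Several markers of 2 classes of unmyelinated neurons were lower in the same libraries as Htr4 and Htr2a. Of 5 markers of C-fibre low-threshold mechanoreceptors 4 were called lower, with a median log2 fold change of -0.53, and their sum was 175 to 219 CPM in CreER-positive libraries and 288 to 291 CPM in controls. The 3 with the smallest p were Slc17a8 (-1.38), Pou4f2 (-0.75) and Th (-0.53), and Zfp521 (-0.29) was not called. Of 8 markers of Mrgprd-expressing nociceptors 4 were called lower, Mrgprd (-1.22), Prkcq (-0.68), Trpc6 (-0.48) and Plxnc1 (-0.43), with a list median of -0.30. The other 4, Gfra2 (-0.18), Lpar5 (-0.16), Agtr1a (-0.07) and Lpar3 (-0.04), were not called. The list summed to 744 to 865 CPM in CreER-positive libraries and 1082 to 1133 CPM in controls. Plxnc1 alone had 353 to 419 CPM and 508 to 546 CPM of these sums. Beside these counts, 0.726% of all tested genes were called, 0.563% lower. No marker of any list was at 0 in all libraries. Their part in the values of Htr4 and Htr2a was not tested, and in whole ganglia fewer cells of a type and less RNA per cell cannot be told apart.

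No marker of the remaining neuron lists was called by edgeR. Of 8 markers of Nppb/Sst itch neurons, the neurons that Htr1f marks, 0 were called by edgeR or DESeq2 and 3 had an unadjusted p under 0.05, with Sst at -0.39 and an edgeR adjusted p of 0.335. Their sum was 642 to 824 CPM in CreER-positive libraries and 809 to 828 CPM in controls. Peptidergic markers (median 0.12, Tac1 0.39), markers of large-diameter A-fibre neurons (0.03, Cadps2 -0.23), pan-neuronal markers (0.00, Isl2 -0.42) and 3 markers of Mrgpra3 itch neurons (0.15, Mrgpra3 0.29) had 0 edgeR calls. In that order 4, 3, 3 and 2 of their genes were under 0.05 before adjustment, and the DESeq2 calls numbered 1, 0, 1 and 1.

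Of the other cell types, Rgs5, listed as a mural cell marker, was the single edgeR call (-0.41, edgeR adjusted p 0.0293). It was 1 of 8 endothelial and mural markers with a median of 0.15, and the other 7 had positive estimates. Rgs5 was lowest, at 104 CPM, in CreER-positive replicate 3, the library where this list was high, so it did not move with its list. Satellite glia (0.07, Kcnj10 0.23), Schwann cell (0.12, Egr2 0.32), fibroblast (0.25, Col1a2 0.27), macrophage (0.21, Csf1r 0.29), mast cell (-0.32, Hdc -0.57), muscle (-1.91, Myh4 -2.73) and red cell and platelet markers (0.40, Alas2 0.40) had 0 edgeR calls and 0 DESeq2 calls, with 1, 2, 0, 0, 2, 2 and 0 genes at an unadjusted p under 0.05. DESeq2 gave no adjusted p for the muscle markers Myh4, Acta1, Tnnt3, Tnni2 and Mb, so it could not call them. Pvalb stands in both the A-fibre and the muscle list. Mast cell markers, from cells that can hold serotonin in rodents, summed to 6.17 to 10.2 CPM in CreER-positive libraries and 8.07 to 11.4 CPM in controls.

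**Figure D5:**
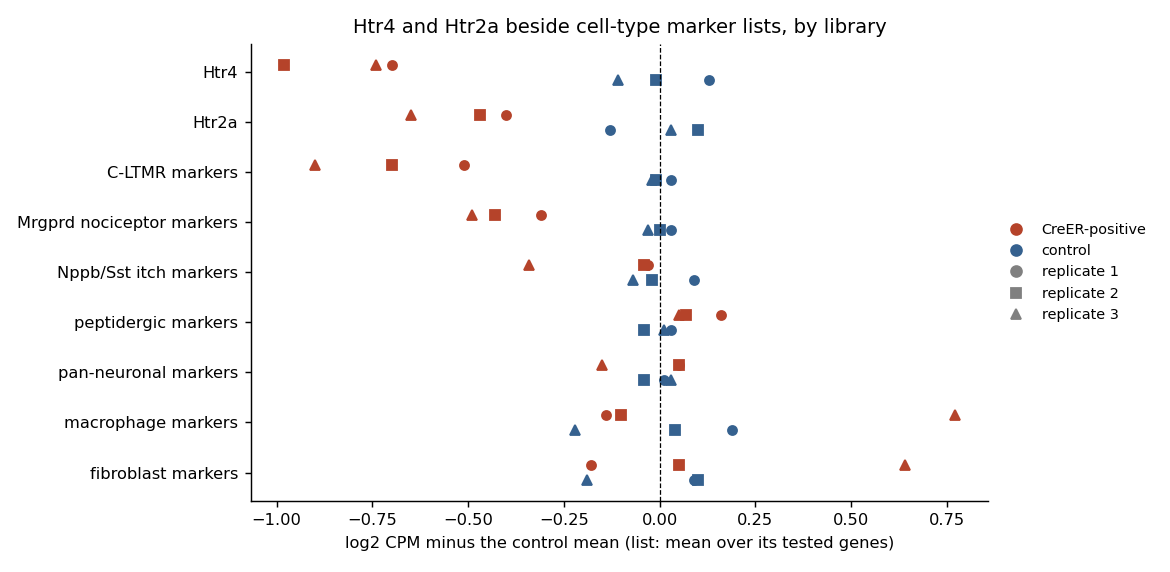
Log2 CPM of Htr4 and Htr2a and the mean log2 CPM of marker lists in each library, minus the control mean. Both receptor genes and the lists of C-fibre low-threshold mechanoreceptors (C-LTMR) and Mrgprd nociceptors lie below all controls in the 3 CreER-positive libraries, while CreER-positive replicate 3 is apart in macrophage (0.77) and fibroblast markers (0.64).

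Likeness to a receptor gene was measured as the root mean square difference of log2 CPM deviations over the 6 libraries, among 17459 genes averaging 1 CPM or more. Closest to Htr4 were Nxpe2 (0.0608), Adam5 (0.0616) and Gm13029 (0.0713). Nxpe2 and Adam5 were themselves called lower, at log2 fold changes of -0.82 and -0.89, and Gm13029 had -0.69 with an edgeR adjusted p of 0.139. Closest to Htr2a were Th (0.0354), tyrosine hydroxylase, an NCBI gene with no symbol (0.037) and Trpc4 (0.0462), a cation channel gene. As deviations of log2 CPM from its mean, Th had -0.13, -0.26 and -0.42 in CreER-positive replicates 1 to 3 and 0.16, 0.32 and 0.32 in controls 1 to 3. Htr2a had -0.15, -0.21 and -0.39 in CreER-positive replicates and 0.12, 0.35 and 0.28 in controls. In both genes CreER-positive replicate 3 was lowest and control replicate 1 the lowest control. With 6 libraries and many genes such likeness is a description of these libraries.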

How the data were processed

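Gene tables of 6 libraries were used, 3 CreER-positive and 3 control, grouped by the genotype label. The submitters' processing notes name GSNAP and the build GRCm38 (mm10). Which tool counted reads, with what annotation and strandedness, is not given in the sources used here. The deposited count is a whole number per NCBI gene, and the deposited RPKM is that count divided by the authors' width and a library total; the summed counts exceed that total by 1.46% to 2.17%, and the cause was not tested. For 77.7% of genes the width is within 5% of the gene's span, so a width is mostly the gene body, not its exons. The 31049 identifiers in RefSeq's GRCm38.p6 table were given symbols.

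The count filter was filterByExpr, scaling was TMM, and the test was edgeR 4.0.16's quasi-likelihood test (R 4.3.3, legacy=FALSE) with adjusted p values (Benjamini-Hochberg) called under 0.05. The standard error is the log2 fold change divided by the square root of F. The edgeR step was tested on simulated data, where the share of false calls was above the nominal level, so calls close to the threshold are less certain than their adjusted p. Nothing in the labels pairs animals or gives a batch, and each library is 1 mouse. Replicate libraries differed beyond sampling noise, with chi-square over its degrees of freedom from 32.8 to 40.7 in CreER-positive pairs and from 5.64 to 8.4 in control pairs. The receptor genes, the lists and the tests were chosen with earlier results of these data known. Named genes were the 10 receptors, Scn9a, called genes of each pathway list and its 2 smallest p values, up to 3 called genes or the smallest p of each marker list, and 3 genes of like pattern for each called receptor. Outside this rule, Slc6a4, Slc18a2, Tph1, Htr2c, Pvalb, Gnas and Prkaca were named after their values were seen, as were further satellite glia and muscle markers. Htr6 and the genes that overlap Htr1b, Htr3a, Htr4 and Adcy8 also fall outside it. Alternatives were other scalings, filters and quasi-likelihood settings, DESeq2 1.42.0, limma-voom (limma 3.58.1) and leaving out libraries. The legacy quasi-likelihood method and exon lengths were added after seeing the data. Figures were drawn with matplotlib 3.10.9.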

Additional observations from a re-analysis of the deposited data

How the results depend on the processing

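Htr4 was called lower under every alternative run. The number of receptor genes called was 1, Htr4 alone, under DESeq2 size factors, without a count filter, under the legacy quasi-likelihood method, and with control replicate 2 and CreER-positive replicate 3 both left out; it ranged from 1 to 2 on leaving out 1 library. In those fits Htr2a had log2 fold changes of -0.50, -0.50, -0.51 and -0.39 with adjusted p values of 0.0538, 0.0537, 0.0506 and 0.139, and from -0.57 to -0.44 on leaving out 1 library. For the fit without the filter, more genes were tested; otherwise the cause was not tested. The sign of Htr1a was positive (0.06) and that of Htr3a (0.03) with the same 2 libraries left out, and on leaving out 1 library Htr3a ranged from -0.18 to 0.06 and Htr7 from -0.05 to 0.20; none of these 3 genes was called in any fit. Over all genes, 160 calls became 425 with DESeq2 and ranged from 60 to 568 on leaving out 1 library. Without CreER-positive replicate 3 the 568 calls were 333 higher and 235 lower, against 36 higher and 124 lower with all libraries, and 159 of the 160 were among them. In the serotonin handling list 1 gene, Maoa, was called under DESeq2 size factors, a filter of 1 CPM in 3 libraries, DESeq2, robust quasi-likelihood, and without those 2 libraries, with 0 to 1 called on leaving out 1 library. The Gi/o list had 0 calls without those 2 libraries and 0 to 1 on leaving out 1. The Gs list had 0 calls without those 2 libraries and 0 to 3 on leaving out 1, the 3 (Adcy8, Gnas and Prkaca) without CreER-positive replicate 3. The log2 difference of the Htr3b to Htr3a ratio kept its sign, from -0.25 to -0.14. The remaining receptor genes kept their sign and were not called in any fit. Fits with 1 library left out keep at least 2 libraries a group. No paired analysis was possible because the labels give no replicate numbers and do not say which CreER-positive and control mice share a litter; the numbers 1 to 3 used here only name the libraries. Htr3b (unadjusted edgeR p 0.0222) did not pass adjustment over all genes, and Htr5a (0.0746) was not under 0.05 before it. With 3 animals a group, this does not show that these genes did not differ.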
